A study of Arabidopsis lyrata subsp. lyrata with 8 samples.

Results

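Genes of the Calvin cycle and of photorespiration were examined in flower buds and roots of Arabidopsis lyrata ssp. lyrata, a relative of A. thaliana. The genes were set by a list of 46 A. thaliana locus codes, and a gene model of the array was a member where its name held a code of the list. Of the 46 codes, 31 matched a model, out of 32386 gene models on the array, and all 31 could be tested. The other 15 (RBCS2B, TPI, FBA1, SBPASE, TKL2, RPE, RPI3, PRK, CP12-3, PGLP1, GOX2, GDCH3, GLYK, DIT1 and DIT2.1) matched no model name and were not analysed here. Genes are called by the symbol of the A. thaliana gene whose code the model carries, and their roles are those known from A. thaliana and other plants.

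The study hybridised total RNA of flower buds (4 arrays) and of roots (4 arrays), labelled with Cy3, to custom Agilent arrays read in 1 colour. Both tissues came from plants that were 6 weeks old, were grown in hydroponic culture after 7 days of stratification and, per the labels, were pooled from 8 to 10 plants a replicate. The growth protocol also names the plants "col 0", otherwise the name of an A. thaliana strain. Whole buds mix green sepals with petals, stamens and carpels, and whole roots mix all root cell types, so that more RNA in each cell and more cells of a type cannot be told apart in any result.

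The Calvin cycle fixes carbon dioxide in the chloroplast stroma. Rubisco adds it to ribulose bisphosphate, the products are reduced to triose phosphate, and the acceptor is regenerated. Rubisco also takes oxygen, and photorespiration returns the resulting phosphoglycolate to the cycle through chloroplast, peroxisome and mitochondrion, where glycine is decarboxylated and ammonium is set free. Several steps have further isoforms in plastids without photosynthesis, in the cytosol or in mitochondria, where they serve glycolysis, one-carbon metabolism or nitrogen assimilation, also in organs that are not green.

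The difference between flower bud arrays 1 and 2 had 0.688 times the variance that spots of the same probe gave within an array, and that between arrays 3 and 4 had 0.792 times. Each pair was counted as 1 sample, A and B, so that 2 flower bud samples were compared with 4 root samples. In the other array pairs of a tissue this ratio was 3.38 to 16.2, and the 3 highest among roots, 12.7 to 16.2, were those with root replicate 4. The headers place all arrays on 1 slide and in 1 scan, with flower buds in row 2 and roots in row 1, so the effects of row and of tissue cannot be told apart. The tissue labels were checked against markers. All 6 root markers were higher in roots, with 5 well above background on no flower bud array (summed level 0.0160 to 0.0288 in flower buds and 23.4 to 32.1 in roots, as multiples of the 75th percentile signal). All 4 measured flower markers were higher in flower buds, with sums of 80.7 to 97.5 in flower buds and 0.189 to 0.313 in roots, and so were all 4 tapetum and pollen markers, with sums of 128 to 159 in flower buds and 0.00856 to 0.0204 in roots. The 8 light-harvesting genes chosen as markers of green tissue were all higher in flower buds, with a summed level of 183 to 187 in flower buds and 8.17 to 12.6 in roots, and LHCB6 passed the background test on no root array. Whether the amount of green tissue accounts for any difference below was not tested.

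Most of the members were higher in flower buds, many by a wide margin, and a few were higher in roots. A gene was called where limma's adjusted p was under 0.05 and the difference at least 2-fold. By this rule 26 of 31 members were called, against 51.4% of the 26420 models tested. Of the members 23 were higher in flower buds, against 27.7% of all models, and 3 were higher in roots (FBA3, GLDP2 and BOU), against 23.7% of all models. The 5 others (PGK2, TKL1, CAT2, GLDT and GS2) were not called. At least 16-fold higher in flower buds by measured signal were 17 members, against 9.81% of all models. They include HPR1, which was not well above background on any root array. Its lower bound was 13.3-fold, and with normexp background correction it was 5.20-fold higher. The median difference, flower bud minus root, was 5.95 on the log2 scale over the members (5.82 with 3 members at their lower bound) and 0.03 over all models.

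The steps differed among themselves. Of the 17 measured genes of carbon fixation (Rubisco, reduction, regeneration, CP12 and carbonic anhydrase), 14 were higher in flower buds and 1 in roots, with a median difference of 8.28. Of the 14 measured genes of photorespiration, its transport and ammonium refixation, 9 were higher in flower buds and 2 in roots, with a median of 1.60. Beside these counts, and those of smaller groups of steps below, stand the 27.7% and 23.7% of all models. The filter on dim signals bears on these counts. Well above background on all 8 arrays were 25 members, while 5 (RBCS1A, RBCS1B, FBP, CA1 and HPR1) passed only through flower buds, where they are high, and CAT2 only through roots. Among the 25, 18 were higher in flower buds and 3 in roots, with a median of 3.30, against 20.2% and 22.6% of the 21733 models that were measured on all 8 arrays and tested alone. The size of a difference in genes dim in roots also depends on background correction. With normexp (offset 50) RBCS1B differed by 10.95, RBCS1A by 7.17, CA2 by 8.14 and GDCH1 by 6.50, and the same 23 members were higher in flower buds.

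**Figure D1:**
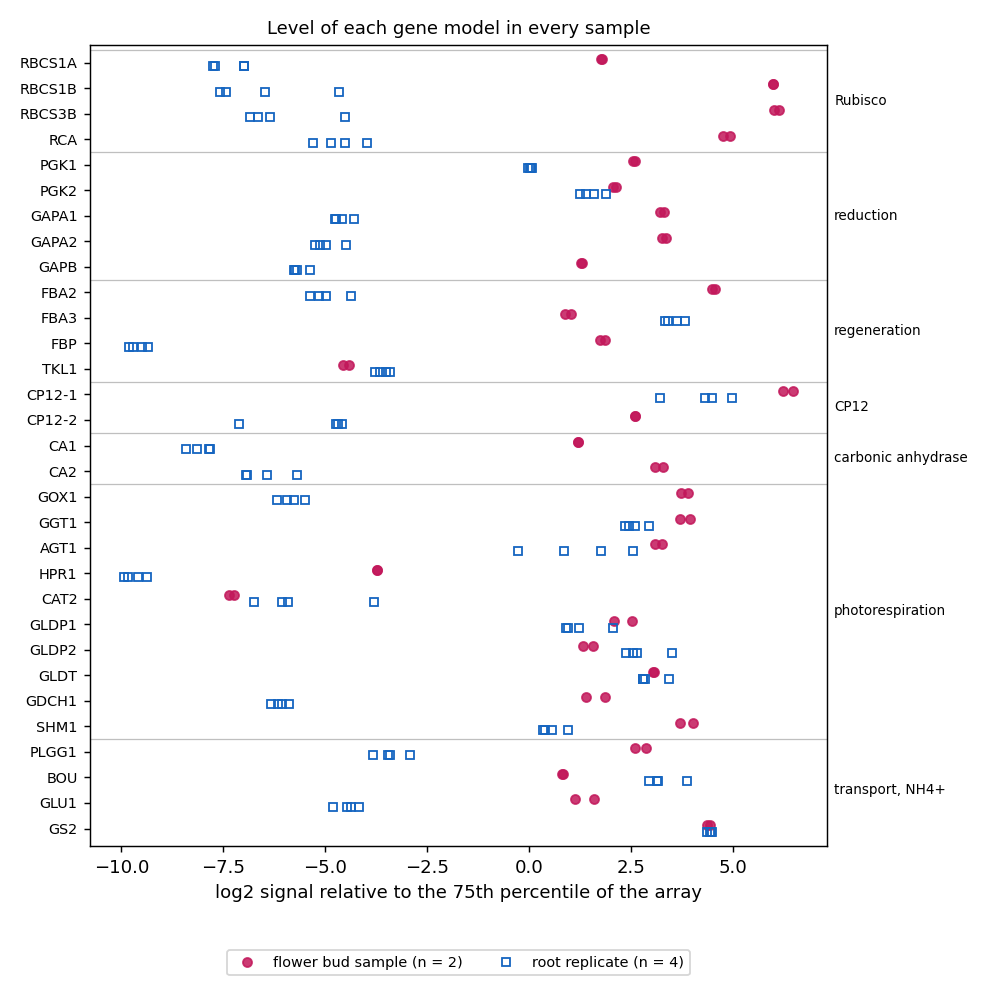
Each row is a gene model, with the log2 signal relative to the 75th percentile of the array on the x axis, filled circles for the 2 flower bud samples and open squares for the 4 root replicates. Flower bud samples lie within 0.47 of each other in every row, and both lie above all root replicates for 24 of 31 models.

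Both flower bud samples stood above all 4 root replicates for 24 of 31 members, against 41.3% of all models tested, as the plot of levels by sample shows. Levels are given below as log2 signal relative to the 75th percentile of the array, where 0 is that percentile. They compare a gene between samples, not different genes with each other, since probes differ in brightness.

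The small subunits of Rubisco were far higher in flower buds. RBCS1B (AT5G38430), a small subunit gene, stood at 5.99 and 5.98 in flower bud samples A and B, against -7.57, -6.48, -7.42 and -4.65 in root replicates 1 to 4. The groups lay far apart, and root replicate 4 stood above the other roots. The difference was 12.52 ± 0.80 (log2 ± SE, adjusted p = 1.43e-05), larger than that of 99.7% of the models tested, and 13.14 without root replicate 4. RBCS3B (AT5G38410), from the same cluster of small subunit genes in A. thaliana, stood at 6.13 and 6.01 in flower buds, against -6.84, -6.35, -6.65 and -4.52 in roots, a difference of 12.16 ± 0.64 (adjusted p = 5.42e-06). The models of RBCS1B and RBCS3B bear the consecutive numbers 3569 and 3570 in their names, and near-identical copies may share signal on their probes, so their values may not be independent of each other.

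RBCS1A (AT1G67090), the small subunit gene outside that cluster, stood at 1.75 and 1.78 in flower buds, against -7.76, -6.98, -6.99 and -7.71 in roots. It was higher in flower buds by 9.13 ± 0.28 (adjusted p = 4.85e-07). Here root replicate 4 lay at the low end of the roots. RBCS1A and RBCS1B were each well above background on 2 of the 4 root arrays, so their root levels are partly at the background. RCA (AT2G39730), the activase that frees Rubisco of inhibiting sugar phosphates, stood at 4.76 and 4.92 in flower buds, against -5.30, -4.87, -4.51 and -3.96 in roots, and was measured on every array. It was higher in flower buds by 9.50 ± 0.35 (adjusted p = 1.09e-06).

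In the reduction phase the 3 GAPDH subunit genes were higher in flower buds by a wide margin, and of the 2 phosphoglycerate kinase genes 1 was called. GAPA1 (AT3G26650) and GAPA2 (AT1G12900) encode the A subunit of the plastid enzyme that uses NADPH, and GAPB (AT1G42970) its regulatory B subunit. GAPA1 stood at 3.20 and 3.31 in flower buds, against -4.77, -4.74, -4.29 and -4.60 in roots, a difference of 7.85 ± 0.18 (adjusted p = 1.35e-07). GAPA2 stood at 3.27 and 3.36 in flower buds, against -5.13, -5.26, -4.50 and -4.98 in roots, a difference of 8.28 ± 0.23 (adjusted p = 3.11e-07). GAPB stood at 1.29 and 1.26 in flower buds, against -5.70, -5.74, -5.76 and -5.38 in roots, a difference of 6.92 ± 0.16 (adjusted p = 1.41e-07). For all 3 genes the gap between tissues was many times the spread within either.

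PGK1 (AT3G12780) and PGK2 (AT1G56190) both encode phosphoglycerate kinases of plastids. PGK1 stood at 2.56 and 2.59 in flower buds, against 0.04, 0.06, -0.02 and 0.02 in roots. It was higher in flower buds by 2.55 ± 0.12 (adjusted p = 2.76e-06), with root replicates only 0.08 apart. PGK2 stood at 2.07 and 2.14 in flower buds, against 1.24, 1.41, 1.60 and 1.90 in roots. Its groups did not overlap, but the difference of 0.57 ± 0.20 (adjusted p = 0.0410; 95% interval 0.08 to 1.06) was under 2-fold and was not called. With spike-in scaling PGK2 differed by 1.33 (adjusted p = 0.00665) and was called.

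In the regeneration phase 2 of the 4 measured genes were higher in flower buds and 1 in roots. The aldolase gene FBA2 (AT4G38970), whose plastid enzyme joins triose phosphates, stood at 4.56 and 4.49 in flower buds, against -5.38, -5.15, -4.97 and -4.36 in roots, and was higher in flower buds by 9.49 ± 0.28 (adjusted p = 4.16e-07). FBA3 (AT2G01140), also a plastid aldolase, went the other way. It stood at 0.89 and 1.03 in flower buds, against 3.34, 3.41, 3.62 and 3.83 in roots, and was 6.00-fold lower in flower buds (-2.59 ± 0.18, adjusted p = 1.97e-05). Neither gene had overlapping groups.

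FBP (AT3G54050), the plastid fructose bisphosphatase that commits carbon to regeneration, stood at 1.85 and 1.75 in flower buds and did not rise well above background on any root array, where its signal read -9.72, -9.81, -9.49 and -9.34. Its root level is therefore known only as a bound. The bound sets the mean of flower buds against the lowest signal, on each root array, of a probe with all spots well above background. FBP was at least 612-fold higher in flower buds. The adjusted p of the fit (4.63e-08) belongs to the measured difference of 11.39, with root readings not well above background, and does not test the bound. This bound rests on background-subtracted signals, and with normexp background correction the difference was 7.48 on the log2 scale, below the bound of 9.26. TKL1 (AT3G60750), a transketolase shared by the Calvin cycle and the pentose phosphate pathway, stood at -4.43 and -4.56 in flower buds, against -3.66, -3.79, -3.51 and -3.41 in roots. Its difference of -0.90 ± 0.15 (adjusted p = 0.00189; 95% interval -1.27 to -0.53) was under 2-fold and was not called. It was called higher in roots with median scaling (-1.18), quantile normalization (-1.38) and normexp with quantile normalization (-1.03).

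CP12 proteins bind GAPDH and phosphoribulokinase in the dark and switch them off. CP12-2 (AT3G62410) stood at 2.60 and 2.60 in flower buds, against -4.58, -4.68, -4.75 and -7.11 in roots, and was higher in flower buds by 7.88 ± 0.73 (adjusted p = 9.26e-05). Root replicate 4 lay far below the other roots, and without it the difference was 7.27. CP12-1 (AT2G47400) stood at 6.23 and 6.48 in flower buds, against 3.20, 4.49, 4.30 and 4.97 in roots, a smaller difference of 2.11 ± 0.46 (adjusted p = 0.00577). In CP12-1 replicate 4 was the highest root.

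Both measured carbonic anhydrases of the list, which interconvert carbon dioxide and bicarbonate, were higher in flower buds. CA2 (AT5G14740) stood at 3.09 and 3.28 in flower buds, against -5.69, -6.92, -6.93 and -6.42 in roots, a difference of 9.68 ± 0.37 (adjusted p = 1.18e-06). CA1 (AT3G01500) stood at 1.20 and 1.20 in flower buds and did not rise well above background on any root array, where its signal read -8.42, -8.13, -7.86 and -7.82. It was at least 403-fold higher in flower buds, and 6.49 higher on the log2 scale with normexp, below the bound of 8.65. The adjusted p of the fit (1.22e-07) belongs to the measured difference of 9.25 and does not test the bound.

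**Figure D2:**
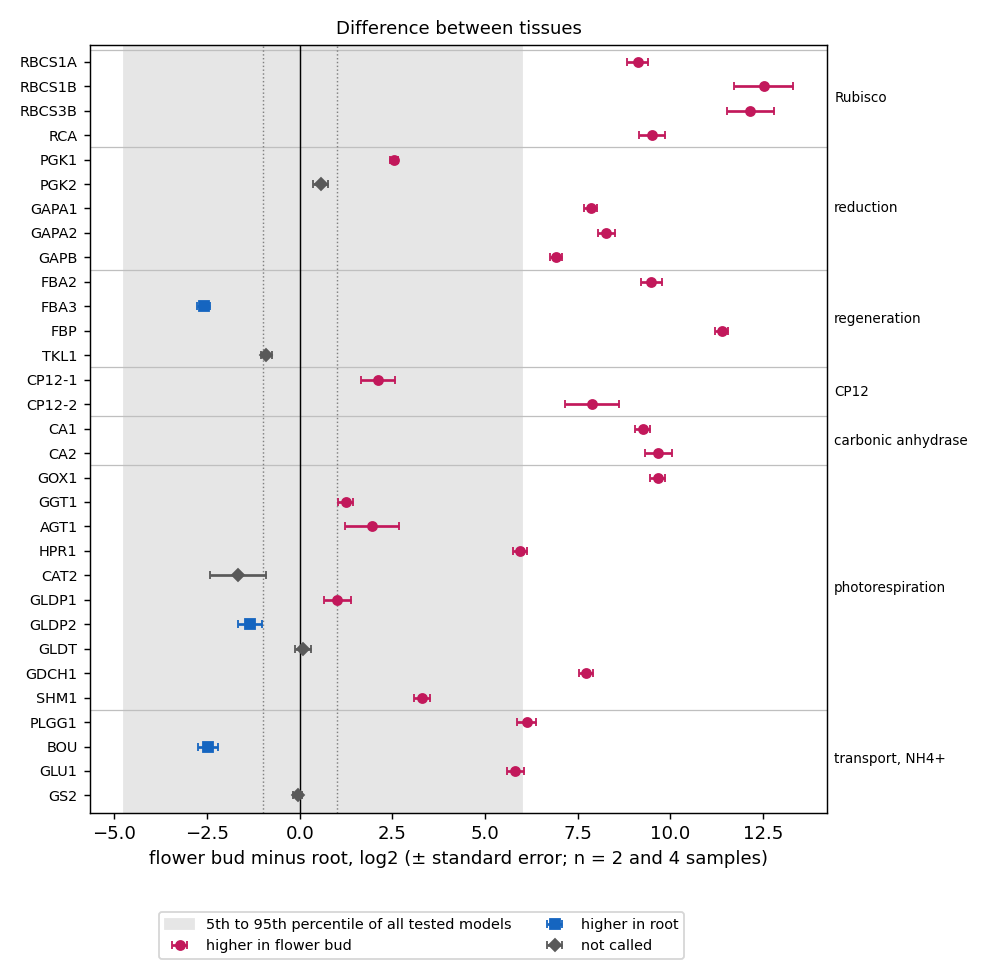
Each row is a gene model, with the difference between flower bud and root (log2, flower bud minus root, with standard error) on the x axis, circles for models higher in flower bud, squares for models higher in root and diamonds for those not called. The grey band spans the 5th to 95th percentile of all tested models, -4.75 to 6.01, and members run from -2.59 to 12.52 by measured signal. FBP, CA1 and HPR1 are drawn at root signals not well above background, and RBCS1A and RBCS1B at root signals partly so. Their positions are therefore not exact.

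Of the 5 measured peroxisomal genes of photorespiration, 4 were higher in flower buds. GOX1 (AT3G14420), the glycolate oxidase that makes glyoxylate and hydrogen peroxide, stood at 3.90 and 3.72 in flower buds, against -6.17, -5.78, -5.94 and -5.50 in roots, a difference of 9.66 ± 0.21 (adjusted p = 1.18e-07). HPR1 (AT1G68010), the hydroxypyruvate reductase that makes glycerate, stood at -3.73 and -3.72 in flower buds and did not rise well above background on any root array, where its signal read -9.83, -9.94, -9.58 and -9.36. It was at least 13.3-fold higher in flower buds, and 2.38 higher on the log2 scale with normexp, below the bound of 3.73. The adjusted p of the fit (5.88e-07) belongs to the measured HPR1 difference of 5.95 and does not test the bound. In both genes the tissues did not overlap.

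The aminotransferases that turn glyoxylate into glycine were also expressed in roots. GGT1 (AT1G23310), which uses glutamate, stood at 3.96 and 3.70 in flower buds, against 2.59, 2.34, 2.45 and 2.95 in roots, and was 2.37-fold higher in flower buds (1.25 ± 0.20, adjusted p = 0.00147). Set to the median of each array instead of the 75th percentile, its difference of 0.97 was under 2-fold. AGT1 (AT2G13360), which uses serine, stood at 3.26 and 3.09 in flower buds, against -0.28, 1.77, 0.86 and 2.55 in roots. The root replicates spanned 2.83, and the difference of 1.94 ± 0.73 was near the threshold (adjusted p = 0.0490). The AGT1 call was lost without root replicate 2 (adjusted p = 0.0597) or 3 (0.101), or without flower bud sample A (0.165) or B (0.134), and with median scaling (0.0879).

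CAT2 (AT4G35090), the catalase that removes photorespiratory hydrogen peroxide in leaves, was dim on all arrays and well above background on 3 of the 4 flower bud arrays. It stood at -7.23 and -7.35 in flower buds, against -6.75, -5.90, -6.05 and -3.79 in roots, and was not called (-1.66 ± 0.76, adjusted p = 0.0902; 95% interval -3.50 to 0.17). All root replicates lay above both averaged flower bud samples, with replicate 4 far above the other roots. The single arrays overlapped: those of sample B read -8.17 (array 3) and -6.52 (array 4), the latter above root replicate 1. The averaged samples, on which the p-values rest, do not show this gap. Without root replicate 1 the difference was -2.04 (adjusted p = 0.0463), and without root replicate 4 it was -1.05 (adjusted p = 0.0152). CAT2 passed as higher in roots in both cases. It also passed with quantile normalization (-2.48, adjusted p = 0.0241) and with all 8 arrays apart (adjusted p = 0.0355, or 0.00925 with a replicate block). The fits of 8 arrays count arrays that differ by less than spots as separate.

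The mitochondrial genes split within a single enzyme. Glycine decarboxylase consists of the P, H, T and L proteins and works together with serine hydroxymethyltransferase. GDCH1 (AT2G35370), which encodes the lipoyl carrier H protein, stood at 1.86 and 1.39 in flower buds, against -6.33, -5.89, -6.07 and -6.15 in roots, a difference of 7.73 ± 0.19 (adjusted p = 2.12e-07). GLDT (AT1G11860), which encodes the T protein, stood at 3.03 and 3.07 in flower buds, against 2.84, 2.80, 2.79 and 3.43 in roots, groups that overlapped (0.08 ± 0.22, adjusted p = 0.747; 95% interval -0.44 to 0.61). The L protein gene mtLPD1, shared with other complexes and not a member, differed by 0.25 ± 0.13 (adjusted p = 0.112); it is named to complete the enzyme, after its value was seen.

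The P protein genes, whose product releases carbon dioxide from glycine, went opposite ways. GLDP1 (AT4G33010) stood at 2.52 and 2.07 in flower buds, against 0.95, 0.90, 1.22 and 2.06 in roots, so the groups only just failed to overlap. Its difference of 1.02 ± 0.35 (adjusted p = 0.0375) was at the threshold, and the call was lost without root replicate 1, 2 or 3 or either flower bud sample (adjusted p 0.0650 to 0.196), and with median scaling (0.74, adjusted p = 0.127). GLDP2 (AT2G26080) stood at 1.56 and 1.33 in flower buds, against 2.39, 2.54, 2.66 and 3.52 in roots, and was 2.51-fold lower in flower buds (-1.33 ± 0.32, adjusted p = 0.00940). Without flower bud sample B, GLDP2 gave -1.21 (adjusted p = 0.0603), and with arrays set to their spike-in RNAs -0.57 (adjusted p = 0.205). SHM1 (AT4G37930), the serine hydroxymethyltransferase of leaf photorespiration, stood at 4.02 and 3.71 in flower buds, against 0.56, 0.40, 0.35 and 0.95 in roots, and was 9.84-fold higher in flower buds (3.30 ± 0.21, adjusted p = 1.43e-05).

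Among the transport and ammonium genes 2 were higher in flower buds, 1 in roots and 1 was not called. PLGG1 (AT1G32080), which carries glycolate out of the chloroplast and glycerate back in, stood at 2.86 and 2.59 in flower buds, against -3.83, -3.40, -3.45 and -2.93 in roots, a difference of 6.12 ± 0.25 (adjusted p = 1.77e-06). BOU (AT5G46800), a mitochondrial carrier needed for photorespiration in A. thaliana seedlings, stood at 0.82 and 0.81 in flower buds, against 2.93, 3.14, 3.16 and 3.88 in roots. BOU was 5.52-fold lower in flower buds (-2.47 ± 0.27, adjusted p = 0.000211), with no overlap between the groups.

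Ammonium is refixed by plastid glutamine synthetase (GS2, AT5G35630) with ferredoxin-dependent glutamate synthase (GLU1, AT5G04140). GLU1 stood at 1.59 and 1.13 in flower buds, against -4.18, -4.47, -4.36 and -4.82 in roots, a difference of 5.82 ± 0.23 (adjusted p = 1.28e-06). GS2 stood at 4.44 and 4.35 in flower buds, against 4.44, 4.37, 4.49 and 4.47 in roots. The GS2 groups overlapped, and the interval of the difference was narrow (-0.05 ± 0.12, adjusted p = 0.720; 95% interval -0.34 to 0.24). Its sign depended on the scaling. Relative to the spike-in RNAs GS2 differed by 0.71, where the median of all models moved to 0.79, and under quantile normalization by 0.21, where that median was -0.10.

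Isoforms of a step were compared through the difference of the 2 genes within each sample, which removes the scaling of the array. Of 40 listed pairs 17 had both genes on the array, and for 14 of them the tissue differences of the 2 genes were at least 2-fold apart by their measured signals. With 2 flower bud samples and 4 root samples an exact permutation test cannot go below p = 0.0667, so no pair could pass 0.05. That smallest value (two-sided; 0.0708 after adjustment over the 17 pairs) was reached by 16 pairs, in which the flower bud and root differences did not overlap. Neither the 14 nor the 16 was set against pairs of unrelated models, so neither count can be called particular to isoforms. Some genes, such as GAPA1, are in several pairs.

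The plastid aldolases went opposite ways. FBA2 minus FBA3 was 3.56 ± 0.15 in flower buds (SD, n = 2) and -8.51 ± 0.23 in roots (SD, n = 4), a gap of 12.07. CP12-2 minus CP12-1 was -3.75 ± 0.18 in flower buds and -9.52 ± 1.82 in roots, a gap of 5.77, or 4.91 without root replicate 4. By measured signal the gap of RBCS1A to RBCS1B was -3.39 and that to RBCS3B -3.04, with root SDs of 1.54 and 1.30 (n = 4). RBCS1A read -7.76 and -7.71 in root replicates 1 and 4, under the levels used for bounds there, -7.58 and -7.30. In replicates 2 and 3 it read -6.98 and -6.99, over those levels (-7.65 and -7.30). A lower root level of RBCS1A could hardly have been measured, so these gaps give no order of RBCS1A against either gene.

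Smaller gaps separated the remaining member pairs. GLDP1 minus GLDP2 was 0.85 ± 0.16 in flower buds and -1.50 ± 0.10 in roots, a gap of 2.35. Root replicate 4 was the highest root in both genes. PGK1 minus PGK2 had a gap of 1.98, GAPA1 minus GAPB one of 0.93 and GAPA1 minus GAPA2 one of -0.42. For CA1 and CA2 the gap was -1.02 with CA1 at its lower bound and -1.65 with normexp. It was the pair that did not reach the smallest p, and no order of these 2 genes can be read from it, since CA1 was not well above background in roots.

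**Figure D3:**
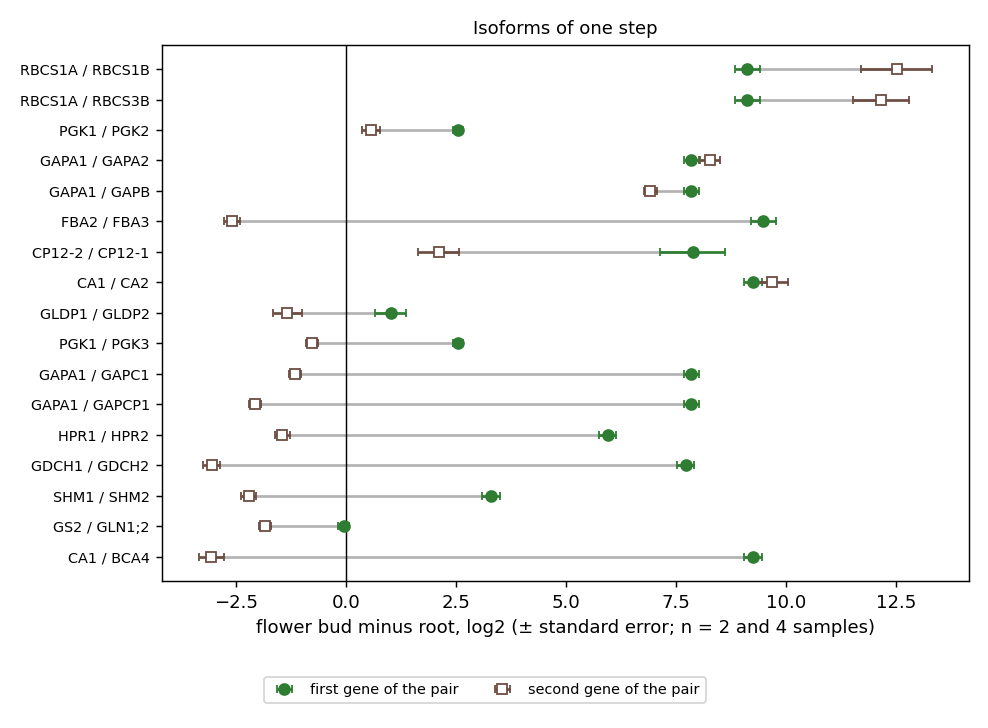
Each row joins the 2 genes of a pair, with the difference between flower bud and root of each (log2, flower bud minus root, with standard error, 2 and 4 samples) on the x axis, the first gene as a filled circle and the second as an open square. FBA2 and FBA3 are 12.07 apart and GAPA1 and GAPA2 0.42, while CA1 and HPR1 are drawn at root signals not well above background, so their distances are not exact.

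For 7 members (PGK1, GAPA1, HPR1, GDCH1, SHM1, GS2 and CA1) the listed pairs also held an isoform of another compartment or role, as the plot of isoform pairs shows. These pairs leave out other measured isoforms, among them the cytosolic aldolases FBA5 and FBA7, which were higher in flower buds. Of all 25 measured isoforms, 2 were higher in flower buds, 12 in roots and 11 were not called. The partners below therefore do not stand for all isoforms. The partners of GAPA1 were the cytosolic GAPC1 and the plastid glycolytic GAPCP1, both higher in roots. GAPC1 differed by -1.15 ± 0.13 (adjusted p = 0.000253) and was 9.01 apart from GAPA1, and GAPCP1 differed by -2.06 ± 0.13 (adjusted p = 1.41e-05) and was 9.92 apart. Also higher in roots was GDCH2, a further H protein gene, at -2.24 and -1.61 in flower buds and 1.06 to 1.21 in roots (-3.05 ± 0.19), with a gap of 10.78 to GDCH1. SHM2, a second mitochondrial serine hydroxymethyltransferase, stood at -0.41 and -0.05 in flower buds and at 1.85 to 2.17 in roots (-2.21 ± 0.17), with a gap of 5.51 to SHM1. In both of these mitochondrial pairs the 2 genes were called in opposite directions.

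HPR2, the cytosolic hydroxypyruvate reductase, differed by -1.45 ± 0.17 and had a gap to HPR1 of 5.18 with HPR1 at its lower bound, or 3.84 with normexp. BCA4, a carbonic anhydrase outside the plastid, differed by -3.06 ± 0.28 and had a gap to CA1 of 11.71 with CA1 at its lower bound, or 9.53 with normexp. Neither HPR1 nor CA1 was well above background on a root array, so these gaps have no exact size. The cytosolic PGK3 (-0.77 ± 0.13) was under 2-fold and 3.32 apart from PGK1. GLN1;2, a cytosolic glutamine synthetase, was higher in roots (-1.83 ± 0.14) and 1.78 apart from the plastid GS2.

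Replicates of a tissue were not equally close. Flower bud samples A and B were at most 0.47 apart in any member. Sample A was the higher for 19 of 31 members and for 12 of the 14 of photorespiration, transport and ammonium refixation, against 48.7% of all models tested. Root replicate 4 was the highest root in 22 of 31 members, against 39.4% of all models, and lay over 1 (log2) from the mean of the other roots in 6, against 8.02% of all models. The 6 were RBCS1B, RBCS3B, AGT1, CAT2 and GLDP1, where it was higher, and CP12-2, where it was lower.

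**Figure D4:**
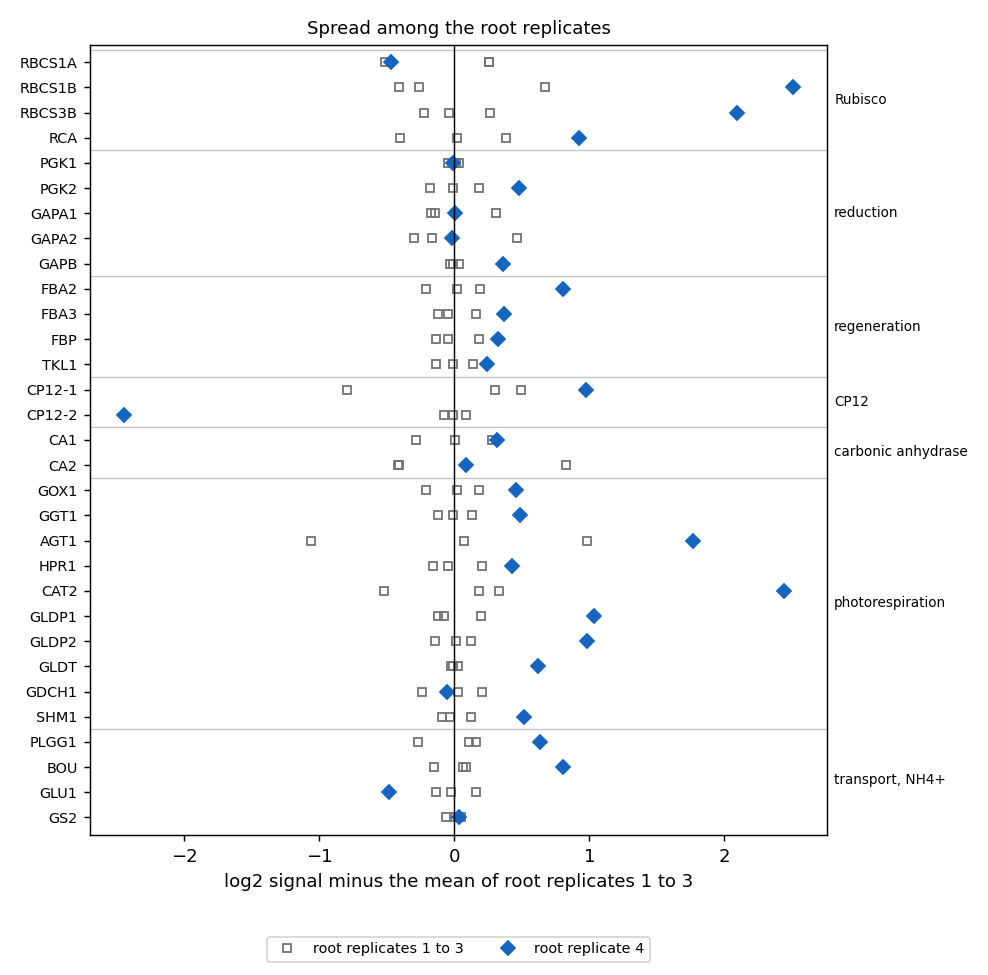
Each row is a gene model, with the log2 signal of each root replicate minus the mean of root replicates 1 to 3 on the x axis, open squares for replicates 1 to 3 and filled diamonds for replicate 4. Replicate 4 lies 2.51 above the mean of the others in RBCS1B and 2.45 below it in CP12-2, and it is the highest root for 22 of 31 models.

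That array also had the lowest 75th percentile signal, 2541 against 2986 to 4499 on the other root arrays, and its marker sums differed from those of the other roots in both directions. It had the lowest sum of the green tissue markers, 8.17 against 8.42 to 12.6, being the lowest root in 4 of these 8 genes and the highest in 2, with LHCB3 at -4.57 against -7.26 to -6.70. It had the highest sum of the root markers, 32.1 against 23.4 to 24.9, of the flower markers, 0.313 against 0.189 to 0.247, and of the tapetum and pollen markers, 0.0204 against 0.00856 to 0.0148. Without root replicate 4, 23 members were higher in flower buds and 4 in roots, CAT2 being the addition, and the median difference was 6.06. The part of signal level or of cell types in these deviations was not tested.

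Where a member had 2 probes, they agreed closely. For 13 members the array carried 2 probes, whose tissue differences lay a median of 0.05 apart (log2) and at most 0.40, in RBCS3B. Probe sequences were not used, so whether the 2 probes of a gene differ in sequence is not known. Their agreement may therefore not be independent. For probes with 10 spots, the SD among spots of an array had medians of 0.03 to 0.08 in flower buds and 0.04 to 0.31 in roots. RBCS3B was measured by its probe of 1 spot (12.16), and its probe of 10 spots gave 12.56. The other members had 1 probe of 1 or 2 spots, with 1 spot in GLDP1, BOU and GS2, so this agreement does not cover them.

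Helpers of Rubisco and of its regulation were mostly higher in flower buds as well. Of 9 measured genes of Rubisco assembly, plastid chaperonin and thioredoxin control, 6 were higher in flower buds, 0 in roots and 3 were not called, with a median of 2.16. Among all models 27.7% were higher in flower buds and 23.7% in roots. TRXF1, a thioredoxin f that activates Calvin cycle enzymes in light, was higher in flower buds by 5.41 ± 0.28, and its paralogue TRXF2 differed by -0.24 ± 0.23 (adjusted p = 0.382). RAF2, an assembly factor, was higher by 5.33 ± 0.18. TRXF2 is named beside its paralogue, a choice made after its value was seen.

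The oxidative pentose phosphate pathway yields NADPH also without light. Of its 11 listed genes 6 matched no model, among them G6PD2, G6PD3, G6PD5 and G6PD6. The 5 measured genes went mostly the other way, with 4 higher in roots and 1 in flower buds (median -1.79). The shares of all models were 23.7% in roots and 27.7% in flower buds. PGD3, a phosphogluconate dehydrogenase, differed by -3.13 ± 0.15 and TAL2, a transaldolase, by -2.58 ± 0.16. The exception was G6PD1, a plastid glucose 6-phosphate dehydrogenase, at -0.54 and -0.43 in flower buds and -7.24 to -6.45 in roots (6.45 ± 0.25).

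Of 10 measured genes of export from the plastid and of starch synthesis, 4 were higher in flower buds and 2 in roots, with a median of 0.65; these counts lie near the shares of all models, 27.7% and 23.7%. APL1, a large subunit of ADP-glucose pyrophosphorylase, was higher in flower buds by 8.64 ± 0.16, and PPT2, a phosphoenolpyruvate translocator, was at least 9.61-fold higher (3.24-fold with normexp). PPT2 was not well above background on any root array. APL3, a further large subunit (22.2-fold), and GPT2, a glucose phosphate translocator (10.0-fold), were measured on all arrays and exceeded that bound. Both are named after their values were seen. Higher in roots were PGI1, the plastid phosphoglucose isomerase (-2.61 ± 0.14), and the translocator PPT1 (-1.34 ± 0.13). Of the 4 measured regulators of chloroplast development, GNC, a GATA factor, was at least 29.1-fold higher in flower buds (8.04-fold with normexp), and the other 3 were not called. A count of 1 in 4 lies near the 27.7% of all models.

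Of the 25 measured isoforms listed beside the members, 2 were higher in flower buds, 12 in roots and 11 were not called, with a median of -0.77. Of all models 27.7% were higher in flower buds and 23.7% in roots. The 2 were cytosolic aldolases. FBA5 stood at 3.52 and 3.06 in flower buds and did not rise well above background on any root array (at least 1720-fold higher, or 501-fold with normexp), and FBA7 was higher in flower buds by 9.02 ± 0.14. The largest differences toward roots were in GLN1;4, a cytosolic glutamine synthetase, at -4.24 and -3.96 in flower buds and 4.06 to 4.33 in roots (-8.29 ± 0.15), and in GAPCP2, a plastid glycolytic GAPDH (-3.60 ± 0.12). GLU2, the other ferredoxin-dependent glutamate synthase, is named after its value was seen: it differed by -2.46 ± 0.16, against 5.82 for GLU1.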

How the data were processed

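Total RNA of flower buds and roots was measured on 8 arrays of 1 colour. The deposited scanner files hold spot intensity, background-subtracted by Agilent Feature Extraction 10.10.1.1, per the file headers, and not normalized between arrays. The authors' deposited value table holds log2 values, which matched the scanner values on the scale used below after centring each probe, in the same direction (r at least 0.999997 per array, across probes). Its column medians were -0.05 to 0.08, and the sources used here do not give its making. Groups and replicate numbers came from the titles.

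Outlier spots were left out, log2 intensity was averaged per probe and each array was set to the 75th percentile of its non-control probes. Of 32863 probes 15 were dropped. A probe was well above background where at least 0.5 of its spots were. Models with 2 probes (477) took the brighter. Testing required every array of at least 1 tissue to be well above background, which 26420 models met and 5951 did not. Spots well above background were 78.9% to 80.5% on flower bud arrays and 73.0% to 75.2% on root arrays, and 0 were saturated. The number of arrays limits the precision.

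Tissues were compared with limma 3.58.1 (lmFit, eBayes; 4 residual and 2.44 prior degrees of freedom) in R 4.3.3, with Benjamini-Hochberg adjustment over the models tested. Without the fold minimum 18895 models passed. Nothing says that replicates are separate cultures, so p-values rest on the spread among these samples, which may be technical. Isoform pairs were tested by exact two-sided permutation over samples. Lists of helpers and isoforms named the 2 called genes with the largest change each way by measured signal, with the additions stated above. Members, lists and the averaging of flower bud arrays were chosen with earlier results of these data known. Tested on simulated data with the sample sizes of this comparison (26420 models), the fit recovered 37 of 67 true changes of 1.5 (log2), 54 of 67 of 2 and 62 of 66 of 4, and called 6 unchanged models. No further models were changed there and the noise was independent, whereas 51.4% of models were called in the data. The rates may therefore differ in the data. Files were read with data.table, version 1.17.8, and jsonlite 2.0.0; summaries and plots were made with Python 3.11.15, numpy 2.4.6, pandas 2.3.3 and matplotlib 3.10.9. Genome positions and probe sequences were not used here. Alternatives covered background correction, scaling, filter, probes, outliers, the deposited values and each sample left out.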

Additional observations from a re-analysis of the deposited data

Results flagged for a closer look

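In 3 of 31 members 1 root replicate lay far from the other 3 by Dixon's criterion for 4 samples at the 95% level, and in all 3 it was replicate 4. Chance marks about 1 in 20 groups. Over all 26420 models tested, 6.95% had such a root replicate, and in 5.09% it was replicate 4. CP12-2 stood at -7.11 in root replicate 4, against -4.75 to -4.58 in the other roots. GAPB stood at -5.38 there, against -5.76 to -5.70. GLDT stood at 3.43 there, against 2.79 to 2.84, and in GLDT this replicate alone made the roots overlap the flower buds. No explanation was tested.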

How the results depend on the processing

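Of 552 values of members under 18 alternatives, 524 kept direction and call, 15 lost the call, 9 gained one and 4 changed sign; 22 members had no change. The sign changed in GLDT with median scaling (-0.20) and in GS2 with quantile normalization (0.21), spike-in scaling (0.71) and normexp with quantile normalization (0.18), none of them called. The median over members was 5.67 with median scaling, 6.71 with spike-in scaling, 5.33 with normexp, 5.27 with normexp and quantile normalization and 3.30 over models well above background on all 8 arrays, which leaves out 6 members. Median scaling gave 20 members higher in flower buds, with GGT1, AGT1 and GLDP1 lost, and spike-in scaling 24, with PGK2 gained. With quantile normalization 5 members were higher in roots, TKL1 and CAT2 being the additions. Over all models, 7325 were higher in flower buds and 6259 in roots (53.9% of the calls in flower buds), with spike-in scaling 11206 and 3782 (74.8%). Roots held more calls with median scaling (6384 in flower buds and 7725 in roots, 45.2% in flower buds), quantile normalization (6595 and 7046, 48.3%) and normexp with quantile normalization (5648 and 5951, 48.7%). In all, 4391 were higher in flower buds and 4910 in roots over the 21733 models above background on all arrays. Spike-in scaling put the median of all models at 0.79 and median scaling at -0.25. Leaving out a sample gave 21 to 23 members higher in flower buds, 2 to 4 in roots, a median of 5.87 to 6.06, 7095 to 7428 models higher in flower buds, 5978 to 6372 in roots, and 14 to 15 pairs at least 2-fold apart. With all 8 arrays apart, 16 pairs passed 0.05 instead of 0, a design in which arrays that differ by less than spots count as separate. Root and flower bud arrays of a number did not deviate together (r across models -0.06 to 0.04); with replicate block and 8 arrays 23 members were higher in flower buds and 4 in roots. Apart from the values named, the cause of a change was not tested. For genes dim in roots, signal over background limits the size of the difference.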
